A study of Mus musculus with 10 samples.

Results

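The mRNA levels of 10 genes of TGF-beta and activin signalling were followed in mouse livers with and without hepatocyte Bap1 editing and with and without carbon tetrachloride (CCl4) injury. They were taken by symbol from a table of 55291 genes: the ligand genes *Tgfb1*, *Tgfb2* and *Tgfb3*, the matrix gene *Ltbp2*, the receptor genes *Tgfbr1* and *Tgfbr2*, the activin subunit genes *Inhba* and *Inhbb*, and the feedback genes *Smad7* and *Bambi*. The rule reads symbols only, but these genes and the gene lists used below were chosen with earlier results of these data known. Their counts and medians, set beside those of all genes, are therefore descriptions and not tests. All 10 were found and passed the filter on low counts, with at least 14 counts in every liver. Female mice of 16 to 20 weeks carried a Cas9 gene that is silent until Cre removes a stop cassette. All received an AAV8 virus with a U6-driven guide and Cre under the TBG promoter, which is active in hepatocytes, so other liver cells were not meant to be edited. The guide was a non-targeting control (NTC) or directed at Bap1 (sgBap1), a nuclear deubiquitinase that removes ubiquitin from histone H2A. After 10 days the mice were injected intraperitoneally with olive oil (vehicle, Veh) or with 1 part CCl4 in 9 parts oil at 10 µL per g of body weight, and the right liver lobe was taken after 48 h. Each vehicle group (NTC-Veh, sgBap1-Veh) held 2 mice and each injured group (NTC-CCl4, sgBap1-CCl4) held 3, with 1 library per mouse. CCl4 is turned by hepatocyte enzymes into a radical that kills cells around the central veins.

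TGF-beta proteins are made as latent complexes held in the matrix. Once freed by integrins or thrombospondin they bind the type II receptor Tgfbr2, which activates the type I receptor Tgfbr1, and this kinase phosphorylates Smad2 and Smad3, which enter the nucleus with Smad4. Activins are dimers of inhibin beta subunits that signal to the same Smads through activin receptors and are trapped by follistatin. In the liver both branches are known for restraining hepatocyte growth and for turning stellate cells into matrix-producing myofibroblasts. Smad7 and Bambi, which the pathway itself induces in many cells, damp the receptors.

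Totals were 33047869 to 52199886 estimated counts per liver, so that 3 counts corresponded to 0.0511 to 0.112 CPM (counts scaled to the TMM-normalized library size), which covers counting error only. *Bap1*, the targeted gene, measured 34.8 and 34.8 CPM in NTC-Veh livers and 17.5 and 19.5 in sgBap1-Veh livers. With CCl4 it measured 30.1, 31.5 and 29.5 CPM in NTC and 17.0, 21.8 and 19.1 in sgBap1 livers, so all 5 sgBap1 livers lay below all 5 NTC livers. The labelled tissue was checked on 7 hepatocyte markers, *Alb* among them, whose sum was 113780 to 157354 CPM with vehicle and 64777 to 82830 with CCl4. One library stood apart: sgBap1-CCl4 replicate 2 had 36.4 CPM of *Adipoq* and 34.5 of *Plin1*, fat cell genes with at most 2 and 1 counts in the other 9 livers. Results that rest on that liver are given with and without it. Unless stated otherwise, log2 fold changes, their standard errors (SE) and adjusted p-values come from 1 edgeR quasi-likelihood fit of the 4 groups. P-values were two-sided, Benjamini-Hochberg adjusted over 17015 tested genes, and a gene was called changed at an adjusted p under 0.05. In whole tissue, more transcript per cell and more cells of the kind that express a gene cannot be told apart.

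In GRCm38 the genes lie at chr7:25687002-25705077 (*Tgfb1*, + strand), chr1:186622792-186705989 (*Tgfb2*, − strand), chr12:86056745-86079041 (*Tgfb3*, −), chr12:84783212-84876532 (*Ltbp2*, −), chr4:47353222-47414931 (*Tgfbr1*, +), chr9:116084293-116175360 (*Tgfbr2*, −), chr13:16011851-16031621 (*Inhba*, +), chr1:119415465-119422248 (*Inhbb*, −), chr18:75367529-75395935 (*Smad7*, +) and chr18:3507923-3516404 (*Bambi*, +), in the GENCODE vM21 annotation. Per the study's methods the counts were made on a later GENCODE release, so the gene models, lengths and overlaps given here may differ from those counted. *Inhbb* has 2 exons and *Ltbp2* 36 in their longest coding transcripts. Genes on the opposite strand overlap *Tgfb2* (*Gm26169*, *Gm29491*), *Tgfb3* (*Ttll5*, *Gm37804*, *Gm48008*), *Ltbp2* (*D030025P21Rik*) and *Inhba* (*B230303A05Rik*, *Gm48444*), so those counts are less certain, because the strand setting of the counting is not given in the sources used here. At most 0.586% of the 50-base stretches of any member's transcripts occurred in another gene.

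RefSeq promoter entries (GRCm38.p6) matched 7 of the 10 genes with 8 start sites. There is no entry for *Tgfb3*, *Smad7* and *Bambi*. The 250 bases upstream of the start are shown for *Tgfb1* and *Tgfb2*, ligand genes that rose together and differ most in level, and for *Inhba* and *Inhbb*, subunit genes of 1 family of which only *Inhbb* passed the test with CCl4 under TMM scaling. They read 5′ to 3′ on the gene's own strand, with every CpG dinucleotide in capitals.

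Tgfb1 (chr7:25686752-25687001, + strand): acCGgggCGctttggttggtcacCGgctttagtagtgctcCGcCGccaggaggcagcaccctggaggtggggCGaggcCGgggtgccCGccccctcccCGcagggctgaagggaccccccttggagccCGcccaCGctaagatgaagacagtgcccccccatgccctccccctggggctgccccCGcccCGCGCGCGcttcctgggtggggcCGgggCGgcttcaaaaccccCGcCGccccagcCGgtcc
Tgfb2 (chr1:186705990-186706239, − strand): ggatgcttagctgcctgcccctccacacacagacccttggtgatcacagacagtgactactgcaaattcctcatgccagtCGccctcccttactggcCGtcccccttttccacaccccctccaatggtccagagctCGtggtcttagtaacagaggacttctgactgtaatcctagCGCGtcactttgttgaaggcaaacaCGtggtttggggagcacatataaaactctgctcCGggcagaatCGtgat
Inhba (chr13:16011601-16011850, + strand): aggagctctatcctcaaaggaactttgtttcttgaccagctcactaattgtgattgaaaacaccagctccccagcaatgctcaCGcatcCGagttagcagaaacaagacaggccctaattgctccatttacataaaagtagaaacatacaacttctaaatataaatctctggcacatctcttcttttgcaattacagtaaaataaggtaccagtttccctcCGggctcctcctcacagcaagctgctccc
Inhbb (chr1:119422249-119422498, − strand): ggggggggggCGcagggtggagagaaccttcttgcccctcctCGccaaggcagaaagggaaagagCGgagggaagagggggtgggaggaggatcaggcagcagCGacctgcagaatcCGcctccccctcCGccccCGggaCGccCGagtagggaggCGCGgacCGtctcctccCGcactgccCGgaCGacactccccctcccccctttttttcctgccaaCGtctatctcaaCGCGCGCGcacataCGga

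The *Tgfb1* and *Inhbb* stretches held 21 CpGs each, *Tgfb2* held 8 and *Inhba* 3, against a median of 6 over the 32851 promoters of the table. Motifs were sought in the whole 300-base promoter entries, which run past the start. The CAGA-box core CCAGACA, a Smad3 and Smad4 binding sequence, and the AP-1 sequence TGANTCA (both strands, and the motifs do not overlap) were each absent from all 8 member entries. They occurred in 6.20% and 7.81% of all promoters. TATAA on the gene's own strand, a motif added after the sequences were seen, lay in 2 of 8, starting 31 bases before the *Tgfb2* start and 91 bases before that of *Inhba*, and in 17.5% of all promoters. These are matches of letters only.

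CCl4 injury in NTC livers was the first comparison, and asked which of these genes respond to the toxin when Bap1 is intact. The 3 TGF-beta ligand genes, *Ltbp2*, both receptor genes, *Inhbb* and *Smad7* rose with CCl4, by 1.63-fold to 7.67-fold, and *Inhba* and *Bambi* did not pass the test. Thus 8 of 10 were changed, each of them higher, and the same 8 did not overlap between the groups, as did 36.7% of tested genes in that direction. Of all tested genes 53.8% were changed, 27.5% higher and 26.3% lower. The median log2 fold change was 1.28 over the 10 genes and 0.03 over all tested genes. Scaling by library size alone in place of TMM, which moves the median of all tested genes to 0.50, brought *Inhba* (0.64) and *Bambi* (0.85) past the test too. Under it 10 of 10 were called, where 10492 of 17015 tested genes were called, 8462 of them higher.

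*Tgfb1*, the ligand best known from fibrosis, measured 8.58 and 6.90 CPM in NTC-Veh and 27.0, 32.7 and 29.0 in NTC-CCl4 livers. Every injured liver was above every vehicle liver, and the log2 fold change was 1.93 (SE 0.18, adjusted p = 1.40e-05), a 3.82-fold difference. *Tgfb2*, whose product needs the co-receptor betaglycan to bind Tgfbr2 well, measured 0.463 and 0.720 CPM with vehicle and 1.62, 1.75 and 1.56 with CCl4. It was a scarce transcript, with 17 to 26 counts in the vehicle livers, and again the groups did not overlap (log2 fold change 1.47, SE 0.29, adjusted p = 0.00177). *Tgfb3* measured 1.04 and 1.11 CPM with vehicle and 2.73, 3.57 and 3.25 with CCl4 (1.57, SE 0.30, adjusted p = 0.00142). *Ltbp2* encodes a microfibril protein of the latent TGF-beta binding protein family that, unlike its relatives, does not carry the latent ligand. It measured 1.12 and 0.388 CPM with vehicle and 5.12, 5.86 and 6.43 with CCl4. This was the steepest rise of the 10 and the least precise, at 2.94 (SE 0.63, adjusted p = 0.00398).

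The receptor genes were already abundant without injury and rose less. *Tgfbr1* measured 32.7 and 32.1 CPM with vehicle and 52.7, 50.7 and 55.1 with CCl4. The rise on the log2 scale, 0.71, was small but tightly measured (SE 0.10, adjusted p = 0.000175). *Tgfbr2* measured 25.3 and 22.1 CPM with vehicle and 50.2, 48.4 and 52.1 with CCl4 (1.08, SE 0.16, adjusted p = 0.000254). The ratio of *Tgfbr1* to *Tgfbr2* CPM was 1.29 and 1.45 in NTC-Veh livers and 1.05 to 1.06 in the 3 NTC-CCl4 livers.

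Of the activin subunit genes, *Inhbb*, which encodes the beta B subunit, measured 4.30 and 1.88 CPM with vehicle and 13.1, 14.9 and 20.7 with CCl4, and all injured livers were above both vehicle livers. Its log2 fold change was 2.39 (SE 0.41, adjusted p = 0.00118). *Inhba*, which encodes the beta A subunit, measured 25.0 and 18.7 CPM with vehicle and 25.7, 21.0 and 26.4 with CCl4. Those ranges overlapped, and the log2 fold change was 0.16 (SE 0.21, adjusted p = 0.560).

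Of the feedback genes, *Smad7*, the inhibitory Smad that draws ubiquitin ligases to the receptor, measured 20.1 and 12.5 CPM with vehicle and 29.8, 25.2 and 26.1 with CCl4 (0.73, SE 0.22, adjusted p = 0.0185). The call was lost without NTC-Veh replicate 2 (0.43, adjusted p = 0.152) and without NTC-CCl4 replicate 1 (0.65, adjusted p = 0.0541). *Bambi*, a receptor-like protein with no kinase domain, measured 3.35 and 3.96 CPM with vehicle and 4.92, 5.64 and 3.67 with CCl4. One injured liver lay among the vehicle livers, and the log2 fold change was 0.38 (SE 0.22, adjusted p = 0.166).

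**Figure D1:**
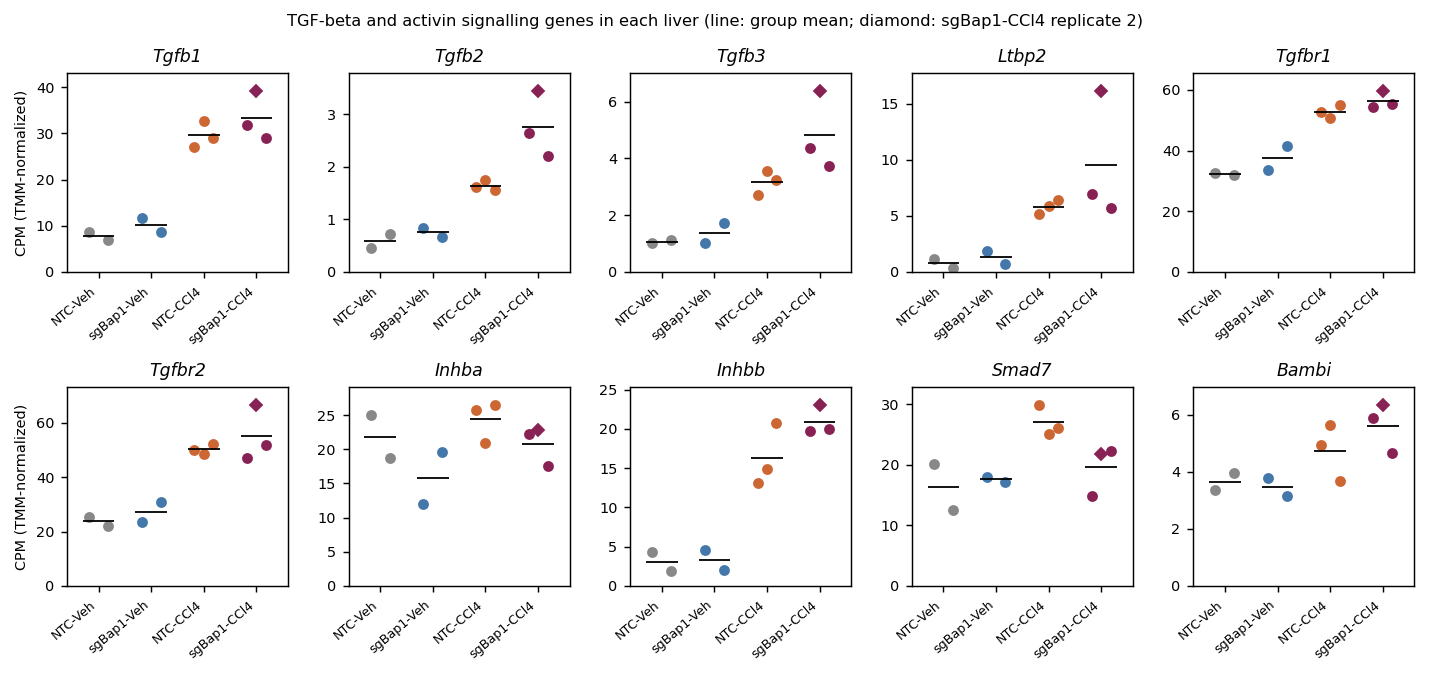
CPM (TMM-normalized, linear axis from 0) of each of the 10 genes in each liver, 2 mice per vehicle group and 3 per CCl4 group, with the group mean as a line and sgBap1-CCl4 replicate 2 as a diamond. *Tgfb1* sits at 6.90 to 11.8 CPM in the 4 vehicle livers and at 27.0 to 39.1 in the 6 CCl4 livers, while *Inhba* overlaps across all 4 groups and *Smad7* after CCl4 is at 25.2 to 29.8 CPM with the NTC guide and at 14.8 to 22.3 with the Bap1 guide.

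The same injury in sgBap1 livers, in a separate set of mice, changed 8 of the 10 genes, all higher, where 56.7% of tested genes were changed, 29.0% higher and 27.7% lower. The median log2 fold change was 1.36, against 0.04 over all tested genes. With library size alone the median of all genes was 0.52 and 10 of 10 were called, *Inhba* (0.90) and *Smad7* (0.64) included. Of 17015 tested genes 10946 were called under that scaling, 8596 of them higher. The ligand genes, *Ltbp2*, the receptor genes and *Inhbb* were again higher. *Bambi* now passed the test, *Smad7* did not, and *Inhba* again did not. Groups did not overlap for the 8 genes called, as for 37.3% of tested genes in that direction.

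*Tgfb1* measured 11.8 and 8.72 CPM in sgBap1-Veh and 31.7, 39.1 and 29.0 in sgBap1-CCl4 livers (log2 fold change 1.69, SE 0.18, adjusted p = 2.63e-05). *Tgfb2* went from 0.834 and 0.674 CPM to 2.64, 3.44 and 2.21 (1.86, SE 0.29, adjusted p = 0.000346). *Tgfb3* went from 1.02 and 1.72 CPM to 4.38, 6.37 and 3.74 (1.83, SE 0.30, adjusted p = 0.000491). In each of these the highest liver was sgBap1-CCl4 replicate 2. Without that liver the log2 fold changes of the ligand genes were 1.56, 1.67 and 1.58, and the calls remained. *Ltbp2* measured 1.83 and 0.749 CPM with vehicle and 6.96, 16.1 and 5.65 with CCl4 (2.85, SE 0.60, adjusted p = 0.00343), and here that liver stood well above the other two. Without it the log2 fold change of *Ltbp2* was 2.25 and the call remained.

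*Tgfbr1* measured 33.7 and 41.6 CPM with vehicle and 54.4, 59.6 and 55.3 with CCl4 (0.58, SE 0.10, adjusted p = 0.000549). *Tgfbr2* measured 23.7 and 30.7 CPM with vehicle and 47.0, 66.5 and 51.8 with CCl4 (1.02, SE 0.16, adjusted p = 0.000339). Neither receptor gene overlapped between the groups. Without sgBap1-CCl4 replicate 2, the highest liver for both, their log2 fold changes were 0.54 and 0.86. *Inhbb* measured 4.63 and 2.02 CPM with vehicle and 19.7, 23.0 and 19.98 with CCl4 (2.62, SE 0.41, adjusted p = 0.000678). *Inhba* measured 12.0 and 19.6 CPM with vehicle and 22.2, 22.7 and 17.5 with CCl4 (0.40, SE 0.22, adjusted p = 0.143), and passed the test when sgBap1-Veh replicate 2, the higher of the vehicle livers, was left out (0.80, adjusted p = 0.0179).

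*Smad7* measured 18.03 and 17.1 CPM with vehicle and 14.8, 21.8 and 22.3 with CCl4. One injured liver was below both vehicle livers, and the log2 fold change was 0.16 (SE 0.22, adjusted p = 0.564). *Bambi* measured 3.77 and 3.14 CPM with vehicle and 5.87, 6.33 and 4.66 with CCl4 (0.70, SE 0.22, adjusted p = 0.0197). This call did not hold without sgBap1-CCl4 replicate 2 (0.60, adjusted p = 0.0523), without sgBap1-CCl4 replicate 1 (0.67, adjusted p = 0.0510) or without sgBap1-Veh replicate 2 (0.58, adjusted p = 0.128).

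**Figure D2:**
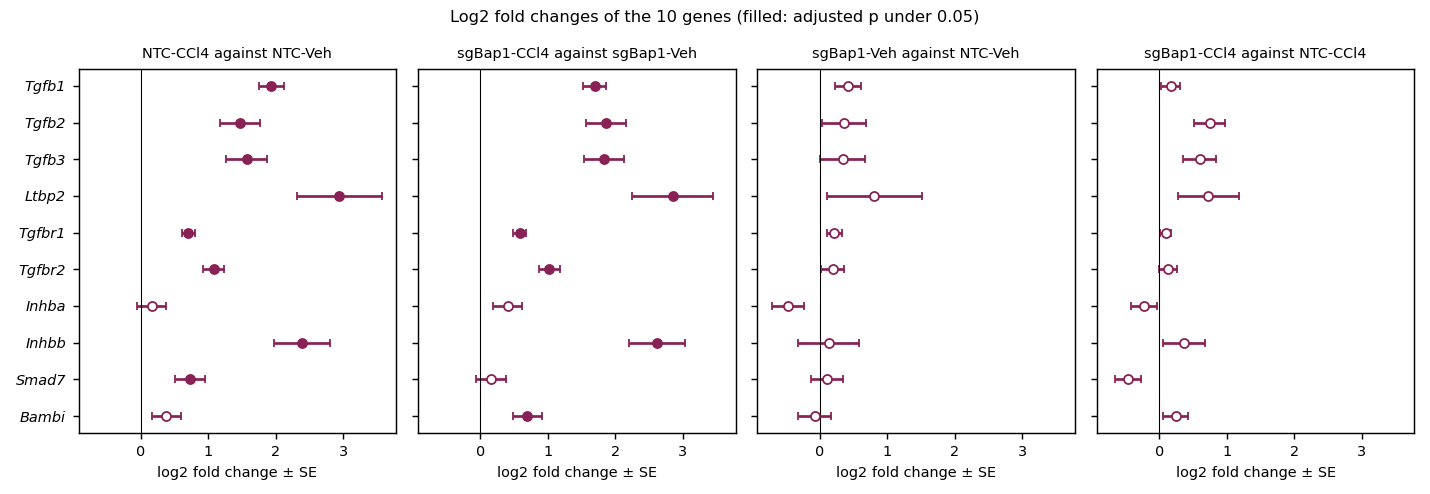
Log2 fold change with its SE for the 10 genes in 4 comparisons, filled where the adjusted p was under 0.05. Both CCl4 comparisons show 8 filled points to the right of 0 and both genotype comparisons show 0 filled points.

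Whether the CCl4 response differed between genotypes was tested by the interaction, the log2 fold change of CCl4 in sgBap1 livers minus that in NTC livers. None of the 10 genes passed (0 also at an unadjusted p under 0.05, and 0 by DESeq2's Wald test). Of all tested genes edgeR called 0.00%, and 10.6% had an unadjusted p under 0.05 by edgeR. DESeq2 called 406 of the 15058 genes to which it gave an adjusted p. *Smad7* came nearest, at -0.57 (SE 0.31, unadjusted p = 0.0934, adjusted p = 0.568). For *Bambi*, the other gene called in 1 genotype only, it was 0.32 (SE 0.31, adjusted p = 0.790). The different calls of *Smad7* and *Bambi* between genotypes therefore do not show that their responses differed. The SEs of the interaction were 0.14 for *Tgfbr1*, 0.24 for *Tgfb1* and 0.82 for *Ltbp2*, so the test was least precise for *Ltbp2*.

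Bap1 editing without injury was compared next. None of the 10 genes was changed between sgBap1-Veh and NTC-Veh livers (0 at an unadjusted p under 0.05 as well, and 0 by DESeq2's Wald test). Of all tested genes 0.523% were changed by edgeR (89 genes), and 12.6% had an unadjusted p under 0.05. DESeq2 called 548 of the 15058 genes to which it gave an adjusted p. *Tgfb1* had the lowest p, at 8.72 and 11.8 CPM in sgBap1-Veh against 6.90 and 8.58 in NTC-Veh livers (log2 fold change 0.41, SE 0.19, adjusted p = 0.417). *Tgfb1* and *Tgfbr1* were higher in both sgBap1-Veh livers than in both NTC-Veh livers, as were 21.7% of all tested genes. *Inhba* had the most negative value, at -0.47 (SE 0.24, adjusted p = 0.471). The sum of 7 macrophage markers was 247 and 352 CPM in sgBap1-Veh against 128 and 176 in NTC-Veh livers, with 1 of 7 called higher, and its part in the *Tgfb1* values was not tested.

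Bap1 editing in injured livers also changed 0 of the 10 genes by edgeR and 0 by DESeq2's Wald test. Of all tested genes 0.253% were changed by edgeR (43 genes), and DESeq2 called 480 of the 15567 genes to which it gave an adjusted p. At an unadjusted p under 0.05 by edgeR there were 3 of the 10 genes (13.4% of all tested genes): *Tgfb2*, *Tgfb3* and *Smad7*. *Tgfb2* was higher in each sgBap1-CCl4 liver (2.21 to 3.44 CPM) than in each NTC-CCl4 liver (1.56 to 1.75), a log2 difference of 0.75 (SE 0.23, adjusted p = 0.203). *Tgfb3* likewise did not overlap, at 3.74 to 6.37 against 2.73 to 3.57 CPM (0.60, SE 0.24, adjusted p = 0.318). *Smad7* was lower in each sgBap1-CCl4 liver, at 14.8 to 22.3 against 25.2 to 29.8 CPM (-0.46, SE 0.19, adjusted p = 0.336). Groups that did not overlap were found for 10.1% of tested genes in the higher and 10.2% in the lower direction. *Tgfb1* differed by 0.17 (SE 0.14, adjusted p = 0.649) and *Tgfbr1* by 0.10 (SE 0.09, adjusted p = 0.672).

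Several of these values moved with sgBap1-CCl4 replicate 2. Without that liver the difference of *Ltbp2* fell from 0.72 to 0.12, that of *Tgfb3* from 0.60 to 0.35 and that of *Tgfb2* from 0.75 to 0.56, *Tgfbr2* turned from 0.13 to -0.02, and *Smad7* went from -0.46 to -0.54. The sum of 5 adipocyte markers was 145 CPM in that liver, 8.14 and 9.98 in the other sgBap1-CCl4 livers, 14.8 to 15.4 in injured NTC livers and 0.565 to 2.21 in vehicle livers, and *Adipoq* and *Plin1* were at 0 to 2 counts everywhere else. Outside that liver the sum was nearly all *Cidec*, at 14.7 to 15.4 CPM in injured NTC livers. The other 4 markers were at or under 3 counts throughout NTC-Veh, sgBap1-Veh and NTC-CCl4. The sum of 8 stellate cell and fibroblast markers was 979.5 CPM there, against 505 to 638 in the other 5 CCl4 livers and 371 to 469 in vehicle livers. Of these markers *Col1a1* stood out most, at 402 CPM there against 71.3 to 143 in the other CCl4 livers. *Dcn*, *Des*, *Pdgfrb* and *Hgf* were also highest there, while *Lrat*, *Reln* and *Ecm1* lay within the range of the other CCl4 livers. How much of the ligand and *Ltbp2* levels of that liver came with either marker set was not tested.

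**Figure D3:**
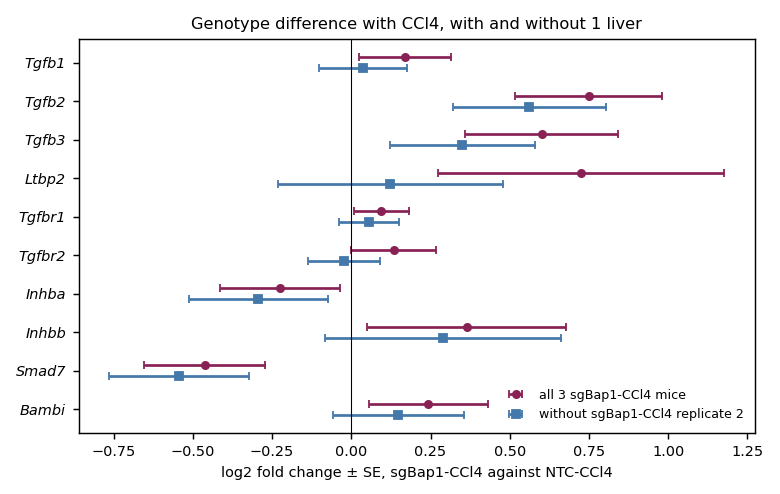
Log2 fold change with its SE for sgBap1-CCl4 against NTC-CCl4, with all 3 sgBap1-CCl4 mice (circles) and without replicate 2 (squares). *Ltbp2* drops from 0.72 to 0.12 when that liver is left out, while *Smad7* stays below 0 at -0.46 and -0.54.

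The activin subunit genes were also set against each other within each liver, which needs no normalization between livers. *Inhba* to *Inhbb* CPM stood at 5.80 and 9.91 in NTC-Veh livers and 2.59 and 9.72 in sgBap1-Veh livers. With CCl4 it was 1.97, 1.404 and 1.27 in NTC livers and 1.13, 0.989 and 0.877 in sgBap1 livers. All 6 injured livers lay below all 4 vehicle livers, and the 3 sgBap1-CCl4 livers lay below the 3 NTC-CCl4 livers. *Tgfb1* to *Smad7* CPM was 0.426 to 0.654 in the 4 vehicle livers, 0.906 to 1.30 in injured NTC livers and 1.30 to 2.14 in injured sgBap1 livers, the lowest sgBap1-CCl4 liver (1.298) falling just under the highest NTC-CCl4 liver (1.301). These ratios were formed after the values were seen and are given without a test.

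**Figure D4:**
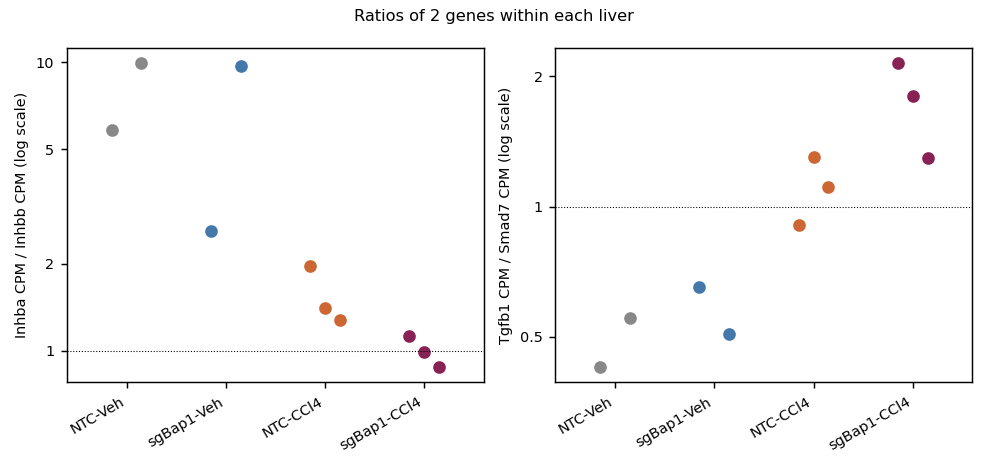
Ratio of *Inhba* to *Inhbb* CPM and of *Tgfb1* to *Smad7* CPM in each liver, on log axes, with a dotted line at 1. The first ratio is 2.59 to 9.91 in vehicle and 0.877 to 1.97 in CCl4 livers, and the second is 0.426 to 0.654 and 0.906 to 2.14.

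Levels of different genes were compared per kb of the longest coding transcript. *Tgfbr1* led in vehicle livers, at 5.63 ± 0.07 CPM per kb in NTC-Veh (SD, n = 2) and 6.54 ± 0.97 in sgBap1-Veh (n = 2). In NTC-Veh livers *Smad7* (3.81 ± 1.27), *Tgfb1* (3.56 ± 0.54), *Inhba* (3.41 ± 0.70) and *Tgfbr2* (2.93 ± 0.28) followed and did not differ from each other beyond their spread. *Inhbb* (0.727 ± 0.402) and *Bambi* (0.720 ± 0.086) came next and could not be separated, then *Tgfb3* (0.317 ± 0.015), and *Tgfb2* (0.116 ± 0.036) and *Ltbp2* (0.111 ± 0.076) were lowest and overlapped. In NTC-CCl4 livers *Tgfb1* (13.6 ± 1.3, n = 3) was above *Tgfbr1* (9.18 ± 0.38), followed by *Smad7* (6.32 ± 0.58) and *Tgfbr2* (6.21 ± 0.22), which overlapped, and by *Inhbb* (3.82 ± 0.94) and *Inhba* (3.82 ± 0.47), which were level. Next came *Tgfb3* (0.941 ± 0.125), *Bambi* (0.935 ± 0.196) and *Ltbp2* (0.857 ± 0.097), not separable, and *Tgfb2* (0.321 ± 0.019) was lowest. The order in sgBap1-CCl4 livers began with *Tgfb1* (15.3 ± 2.4) and *Tgfbr1* (9.80 ± 0.48) and ended with *Tgfb2* (0.540 ± 0.122), with *Inhbb* (4.91 ± 0.43) above *Inhba* (3.26 ± 0.45). The place of *Tgfb1* depends on the length used, since its coding transcript has 2175 bases and its merged exons 5042, and by merged exons *Tgfbr1* led in all 4 groups. Per kb of coding transcript, *Tgfb1* made up 86.2% to 92.1% of the summed level of the 3 ligand genes in every liver, *Tgfb3* 5.14% to 10.9% and *Tgfb2* 2.08% to 3.87%. These shares depend on the length too. By merged exons the NTC-Veh means were 1.53 (*Tgfb1*), 0.317 (*Tgfb3*) and 0.102 (*Tgfb2*) CPM per kb, a lower share for *Tgfb1*.

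A list of 63 further genes of the pathway was read from the same fit, and 58 were tested (*Itgb6*, *Inha*, *Mstn*, *Acvr1c* and *Bmpr1b* did not pass the filter on counts, although *Acvr1c* had 215 counts in sgBap1-CCl4 replicate 2, the liver with fat cell transcripts, against 0 to 5 elsewhere). In NTC livers CCl4 left 26 higher, 3 lower and 29 not passing, with a median log2 fold change of 0.56, beside 27.5% higher and 26.3% lower among all tested genes. In sgBap1 livers 25 were higher, 6 lower and 27 did not pass, with a median of 0.48, beside 29.0% higher and 27.7% lower among all tested genes. Without sgBap1-CCl4 replicate 2 there were 24 higher and 5 lower in sgBap1 livers. Counted without direction, the list was thus changed in a share close to that of all genes. Its calls were mostly higher, while those of all genes were nearly balanced. The roles below are to be read against the same shares. With library size alone 44 listed genes were higher and 1 lower in NTC livers, where 8462 of all 17015 tested genes were higher. In sgBap1 livers 45 listed genes were higher and 1 lower, where 8596 of all tested genes were higher. The listed genes called higher with TMM, 26 and 25, stayed higher under that scaling. Of the 3 and 6 called lower only 1 in each genotype remained so, *Acvr2b* in NTC and *Gdf2* in sgBap1 livers, and *Smad5* (-0.23 in sgBap1 livers) turned to 0.25.

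Genes that store or free latent TGF-beta came first, and 5 of 8 rose in each genotype (27.5% and 29.0% of all tested genes). *Thbs1*, thrombospondin 1, which can activate latent TGF-beta, had the steepest rise of the list, from 0.817 and 1.52 to 47.3, 87.9 and 70.3 CPM in NTC livers (log2 fold change 5.87, SE 0.48, adjusted p = 2.31e-05) and by 6.61 (SE 0.49) in sgBap1 livers. *Nrros* and *Lrrc32*, which tether latent TGF-beta to macrophages and to regulatory T cells or platelets, rose by 1.94 (SE 0.19) and 1.46 (SE 0.16) in NTC livers. *Itgav*, the alpha V integrin chain, rose by 1.23 (SE 0.10), and *Ltbp1*, *Ltbp3* and *Ltbp4* passed in neither genotype, although with library size alone *Ltbp1* (1.16) and *Ltbp3* (1.91) passed in sgBap1 livers. *Ltbp1* and *Ltbp3* were highest in sgBap1-CCl4 replicate 2, at 7.43 and 15.9 CPM.

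Among the other activin-branch genes, the 2 that rose in both genotypes were *Fst*, follistatin, and its relative *Fstl3*, which bind and block activins. *Fst* went from 2.15 and 2.22 to 25.2, 18.1 and 22.7 CPM in NTC livers (3.33, SE 0.24, adjusted p = 3.91e-06) and rose by 3.55 (SE 0.26) in sgBap1 livers. *Fstl3*, named although its mean of 58.7 counts is under the limit of 100 for naming, rose by 2.97 (SE 0.40) and 3.14 (SE 0.41). *Inhbe*, a hepatocyte activin subunit gene, was lower in sgBap1 livers with CCl4 (-1.19, SE 0.43, adjusted p = 0.0461). Its groups overlapped, at 56.7 and 142 CPM with vehicle and 41.4, 26.9 and 62.2 with CCl4, and the lowest liver was sgBap1-CCl4 replicate 2. With library size alone *Inhbe* was at -0.73 (adjusted p = 0.138). In NTC livers it was at 0.11 (adjusted p = 0.855), and the interaction was -1.30 (SE 0.62, adjusted p = 0.529).

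Of the 6 other receptors and co-receptors tested, 2 rose and 2 fell in each genotype, where 53.8% and 56.7% of all tested genes changed. *Acvrl1* and *Eng*, receptors of endothelial cells, rose by 1.90 (SE 0.26) and 0.66 (SE 0.13) in NTC livers. *Acvr2a* and *Acvr2b*, the activin type II receptors, fell by 0.50 (SE 0.10) and by 1.27 (SE 0.27) on the log2 scale there, while *Tgfbr1* and *Tgfbr2* rose. With library size alone *Acvr2a* was at -0.028 (adjusted p = 0.862). Of the 3 signalling Smads, 0 passed in NTC livers, and in sgBap1 livers *Smad3* rose by 0.54 (SE 0.10, adjusted p = 0.00108). *Smad3* was at 0.25 (SE 0.10, adjusted p = 0.0551) in NTC livers, its interaction did not pass (0.29, SE 0.14, adjusted p = 0.513), and *Smad2* and *Smad4* passed in neither genotype. With library size alone *Smad3* passed in NTC livers too (0.72), *Smad4* passed in both (0.38 and 0.61) and *Smad2* in sgBap1 livers (0.40).

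Feedback genes and Smad repressors other than *Smad7* and *Bambi* gave 4 of 8 higher in NTC and 3 of 8 in sgBap1 livers, and 0 lower (27.5% and 29.0% of all tested genes were higher). *Pmepa1*, which sequesters receptor-bound Smads, rose by 1.87 (SE 0.27), *Skil*, a Smad co-repressor, by 1.74 (SE 0.20) and *Tgif1*, another co-repressor, by 1.28 (SE 0.12) in NTC livers. Of genes that TGF-beta is known to induce, 9 of 10 rose in each genotype, where 27.5% and 29.0% of all tested genes did, with medians of 3.49 and 3.66, the highest of the 7 roles. In NTC livers *Timp1*, an inhibitor of matrix proteases, rose by 5.23 (SE 0.54), *Col1a1*, the main fibrillar collagen chain, by 4.36 (SE 0.90) and *Acta2*, smooth muscle actin of myofibroblasts, by 4.14 (SE 0.54). The tenth gene, *Fn1*, which hepatocytes secrete, stood at 0.15 (SE 0.14, adjusted p = 0.404), and with library size alone it passed in both genotypes (0.62 and 0.64). In the BMP branch, a sister pathway, 4 of 17 were higher and 1 lower in NTC livers, 3 higher and 3 lower in sgBap1 livers, beside 53.8% and 56.7% of all tested genes changed. *Id1*, *Id3* and *Id2*, immediate BMP targets, rose by 2.89 (SE 0.23), 1.57 (SE 0.15) and 1.26 (SE 0.17) in NTC livers, and *Gdf2*, which encodes BMP9, fell by 0.79 (SE 0.15) on the log2 scale, and by 0.31 (adjusted p = 0.0970) with library size alone.

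**Figure D5:**
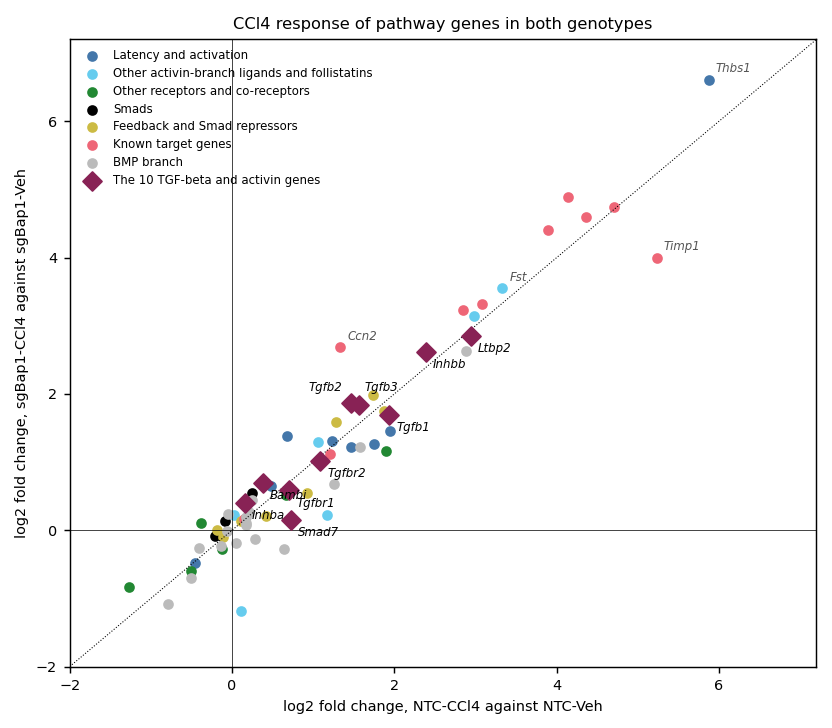
Log2 fold change with CCl4 in NTC livers (x) and in sgBap1 livers (y) for the 58 tested genes of the pathway list, coloured by role, and the 10 TGF-beta and activin genes as diamonds. The dotted line marks equal values, and *Thbs1* (5.87, 6.61) lies at the upper end.

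Between genotypes, 0 of the 58 genes were changed with vehicle (7 at an unadjusted p under 0.05) and 0 with CCl4 (8 at an unadjusted p under 0.05), and the interaction gave 0 (3 at an unadjusted p under 0.05). Of all tested genes 12.6%, 13.4% and 10.6% had an unadjusted p under 0.05 in these tests. The gene nearest to a call, named after its values were seen, was *Ccn2*, a matricellular target of TGF-beta and YAP. It measured 22.5, 20.3 and 25.3 CPM in the NTC livers given CCl4 and 43.1, 59.9 and 41.4 in the sgBap1 ones (log2 fold change 1.09, SE 0.19, adjusted p = 0.0569 by edgeR), with 6.89 and 11.1 CPM in NTC-Veh and 6.75 and 8.27 in sgBap1-Veh livers. Its interaction was 1.35 (SE 0.32, adjusted p = 0.144). By DESeq2's Wald test *Ccn2* was changed in both (adjusted p = 2.24e-05 with CCl4 and 0.00516 for the interaction), and with CCl4 that test also called *Thbs1* (1.02, adjusted p = 0.0126), *Acvr1b* (-0.43, adjusted p = 0.0311) and *Id2* (-0.54, adjusted p = 0.0245). Of all genes with an adjusted p it called 480 of 15567 with CCl4 and 406 of 15058 for the interaction. It gave no adjusted p for 5 genes of the list. The DESeq2 test was not repeated without sgBap1-CCl4 replicate 2, the liver with the highest *Ccn2* and *Thbs1*.

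Markers of several cell types were read beside these genes, under TMM scaling. Their calls with CCl4 stand beside 27.5% higher and 26.3% lower among all tested genes in NTC livers. In sgBap1 livers these shares were 29.0% and 27.7%. In NTC livers 6 of 7 hepatocyte markers were lower, and higher were 5 of 8 stellate cell and fibroblast markers (1 lower), 5 of 7 macrophage, 3 of 3 neutrophil, 2 of 3 tested platelet, 2 of 5 cholangiocyte and 2 of 5 sinusoidal endothelial markers. In sgBap1 livers 3 of 7 hepatocyte markers were lower, and higher were 4 of 8 stellate (1 lower), 4 of 7 macrophage (1 lower), 3 of 3 neutrophil, 2 of 3 platelet, 2 of 5 cholangiocyte and 2 of 5 endothelial markers (2 lower). The macrophage sum was 128 to 352 CPM with vehicle and 337 to 439.5 with CCl4. *Col1a1* is in both the stellate and the target list. Mesothelial (4) and T cell (3) markers gave 0 calls in both. Of the adipocyte and pancreas lists 1 gene each was tested. The adipocyte list gene, *Cidec*, was higher and the pancreas gene lower in both. No marker of the stellate, macrophage or hepatocyte lists was at or under 3 counts throughout a group. Their part in the rises was not tested.

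For each gene, the closest patterns were sought among 12019 other genes by Pearson's r of log2 CPM over the 10 livers, which fall into a vehicle and a CCl4 cluster, so that r mostly reflects the CCl4 difference. *Tgfb1* was most like *Rap2b* (r = 0.998) and *Metrnl* (0.997), and 2271 genes exceeded 0.9. Between 1412 and 1989 genes exceeded 0.9 for *Tgfb2*, *Tgfb3*, *Ltbp2*, *Tgfbr1*, *Tgfbr2* and *Inhbb*, led by *Impact* (0.992), *Agpat4* (0.987), *Ssbp4* (0.991), *Olr1* (0.992), *Prmt2* (0.992) and *Scrib* (0.989) in that order. *Bmper*, a BMP-binding protein gene, was second for both receptor genes (0.991 and 0.989). Only 2 genes exceeded 0.9 for *Inhba* (*Bcor*, 0.939, and *Tmem184c*, 0.909), 2 for *Smad7* (*Tmem268*, 0.924, and *2410002F23Rik*, 0.901) and 29 for *Bambi*, led by *Fbxw8* (0.969).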

How the data were processed

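Bulk RNA-seq of 10 livers was analysed. Per the study's methods, the authors made stranded mRNA libraries, read pairs of 50 bases, aligned them to GRCm38 with STAR 2.7.6a and quantified genes with Salmon 1.4.0 (versions as in the submitters' processing notes). The deposited values are estimated counts (expected counts) per gene, not normalized. They were rounded, since 9.22% were not whole. With edgeR 4.0.16 (R 4.3.3), filterByExpr chose the genes tested, which were normalized by TMM and fitted with glmQLFit (robust) over the 4 groups, and contrasts were tested with glmQLFTest. The SE is the log2 fold change divided by the square root of F. DESeq2 1.42.0 was an alternative, with other scalings and filters, a replicate block, the 2 groups alone and each mouse left out. The members and lists were chosen with earlier results of these data known. All members are named, *Bap1*, *Adipoq* and *Plin1* too, and of each pathway role up to 4 genes with the largest CCl4 change in NTC livers (adjusted p under 0.05, mean of at least 100 counts). One gene that this rule names is not reported here. Other listed genes were named after their values were seen. Also named were listed genes changed between genotypes, and the 2 genes most like each member. Replicates were separate mice (r = 0.977 to 0.988). The fit was also run on simulated data with few changed genes, in balanced directions and alike in both genotypes. That run does not cover changes as widespread as those with CCl4, nor the choice of scaling. No batch is named in the labels.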

Additional observations from a re-analysis of the deposited data

How the results depend on the processing

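Under 7 alternatives 335 member values kept their direction and side of the threshold, 5 newly passed it and 0 lost it. Scaling by library size alone raised the median of all genes' log2 fold changes with CCl4 from 0.03 to 0.50 in NTC and from 0.04 to 0.52 in sgBap1 livers, and the share of changed genes that were higher from 51.1% to 80.7% and from 51.2% to 78.5%. Under it *Inhba* (0.64, adjusted p = 0.0284) and *Bambi* (0.85, adjusted p = 0.0117) passed in NTC livers, *Inhba* (0.90, adjusted p = 0.00580) and *Smad7* (0.64, adjusted p = 0.0234) in sgBap1 livers, and 45 pathway genes passed in NTC livers. Of all 17015 tested genes 10492 passed in NTC and 10946 in sgBap1 livers under that scaling. With DESeq2's Wald test there were 4 called pathway genes in sgBap1-CCl4 against NTC-CCl4 and 1 in the interaction. Over the whole table it called 548 of 15058, 480 of 15567 and 406 of 15058 genes with an adjusted p in the genotype comparisons and the interaction. The main fit called 89, 43 and 0 of 17015. With no filter beyond 1 count those 3 counts were 177, 113 and 103. In sgBap1-Veh against NTC-Veh the whole table gave 47 calls with library size alone and 35 with only the mice of the 2 groups. Without 1 mouse it gave 0 to 150 calls there, the 150 without sgBap1-CCl4 replicate 2, and 1 to 49 in sgBap1-CCl4 against NTC-CCl4.

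The replicate numbers of the labels did not pair the livers: same-numbered livers of different groups had deviations correlated at -0.15 to 0.02 over 9 pairs. With the replicate block *Bambi* passed in NTC livers (0.51, adjusted p = 0.0487), which makes 9 members there, no other member call changed, and the whole table gave 1 and 3 genotype calls.

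Leaving out 1 mouse at a time moved the pathway genes called between 0 and 1 in sgBap1-Veh against NTC-Veh (*Hamp*, without NTC-Veh replicate 1) and between 0 and 1 in sgBap1-CCl4 against NTC-CCl4 (*Ccn2*, without either NTC-Veh mouse). Where 1 mouse was left in a group, its spread was taken from the other groups. Member values that changed sign had not passed the test. They ranged from -0.033 to 0.38 for *Inhba* with CCl4 in NTC livers and from -0.023 to 0.24 for *Tgfbr2* in sgBap1-CCl4 against NTC-CCl4. In sgBap1-Veh against NTC-Veh the ranges were -0.62 to 0.85 for *Inhbb*, -0.20 to 0.49 for *Smad7*, -0.22 to 0.049 for *Bambi*, -0.013 to 1.76 for *Ltbp2*, -0.067 to 0.68 for *Tgfb3* and -0.0034 to 0.37 for *Tgfbr2*. For the interaction they were -0.48 to 0.98 for *Inhbb*, -1.04 to 0.74 for *Ltbp2*, -0.23 to 0.14 for *Tgfbr2*, -0.44 to 0.00083 for *Tgfb1*, -0.079 to 0.67 for *Tgfb3*, -0.071 to 0.64 for *Inhba* and -0.26 to 0.036 for *Tgfbr1*. The cause of these changes was not tested. *Tgfb2* and *Ltbp2* rest on as few as 17 and 14 counts in a vehicle liver, and 2 mice per vehicle group limit every comparison that uses them.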
